A study of Mus musculus with 9 samples.

Results

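Fatty acid oxidation is described here by a list of 33 genes for enzymes and transporters of mitochondria and peroxisomes and for Ppara, the nuclear receptor that switches many of them on. The transcript cluster that carries each gene's symbol was taken from the array table, and 32 of the 33 genes were found among 19505 named genes. No array value of Etfb, the beta subunit of electron transfer flavoprotein, was analysed here, and it enters the counts of upstream windows alone. By the known site of their products, 17 of the 32 genes were counted as mitochondrial and 11 as peroxisomal. The other 4 were in neither class: Crat and Eci2 act in both organelles, Acot1 acts in the cytosol and Ppara is a transcription factor.

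RNA of white adipose tissue from 9 male mice was hybridized to Clariom S mouse arrays, which read gene expression through short probes, with 1 array per sample. The treated group was 3 C57BL/6JHamSlc-ob/ob mice dosed by oral gavage with rice bean (Vigna umbellata) extract at 100 mg/kg (VE). The ob/ob vehicle group was 3 C57BL/6JHamSlc-ob/ob mice dosed with vehicle, and the wild type group was 3 C57BL/6JHamSlc-+/+ mice, also dosed with vehicle. Dosing lasted 6 weeks in a study of 42 days, all animals ate standard chow, and all were 6 weeks old when obtained. ob/ob mice make no working leptin in any tissue and are obese from a young age, so the genotype is not limited to fat. The fat depot and the make-up of the vehicle were not given in the sources used here. Groups of 3 arrays limit the precision of every value.

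As background, long fatty acids enter mitochondria as carnitine esters through the shuttle of Cpt1a, Slc25a20 and Cpt2. Inside, each round of beta-oxidation removes an acetyl unit through dehydrogenation, hydration, a second dehydrogenation and thiolysis, and the electrons of the opening step pass through electron transfer flavoprotein and Etfdh to ubiquinone. Peroxisomes run a parallel pathway on very long, branched and dicarboxylic chains, import acyl-CoA esters through ABC transporters and hand shortened chains to mitochondria as carnitine esters. White adipocytes mainly store and release fat, and their capacity to oxidise it is lower than that of brown adipocytes, muscle or liver.

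Values are log2 signals normalised by the submitters, with an SD over 3 arrays, and differences are on the same log2 scale with the standard error (SE) of the limma fit. A call is a limma p adjusted by Benjamini-Hochberg over 19572 transcript clusters that is under 0.05. The smallest p that an exact permutation test of 3 arrays against 3 allows is 0.1, and calls therefore use the spread that limma pools over genes and groups. Each pair of the 3 comparisons shares a group. In bulk tissue, fewer cells of a type and less RNA per cell cannot be told apart.

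The arrays differed in cell type markers before any member was considered. All 11 measured adipocyte markers lay above the array median on all 9 arrays, and their summed log2 signal was 21.5 to 21.7 on the VE arrays, 21.4 to 21.6 on the ob/ob vehicle arrays and 20.5, 20.5 and 21.2 on wild type arrays 1, 2 and 3. Wild type arrays 1 and 2 stood apart by epithelial transcripts: the 16 epithelium markers summed to 14.5 and 15.1 there, against 12.4 on wild type array 3, and to 8.55 to 9.51 on the 6 ob/ob arrays. Of these markers, 13 lay below the array median on every VE array and 14 on every ob/ob vehicle array. On wild type array 3, 8 of the 16 lay above the array median, so it also held epithelial signal. The 14 measured macrophage markers summed to 19.6 to 20.1 on the VE arrays, 19.5 to 20.4 on the ob/ob vehicle arrays and 13.4 to 15.4 on the wild type arrays. All 14 lay above the array median on each ob/ob array, and Cd14, Trem2 and Itgax lay below it on each wild type array. Transcripts of 6 liver genes summed to 18.3, 19.3 and 20.0 on VE arrays 1, 2 and 3, 18.0 to 19.2 on the ob/ob vehicle arrays and 17.9, 12.6 and 19.4 on wild type arrays 1, 2 and 3. Of 8 brown and beige adipocyte markers, 4 lay below the array median on every VE array, 5 on every ob/ob vehicle array and 5 on every wild type array. Ucp1, Dio2 and Prdm16 were among them in each group. The 8 markers summed to 8.62 to 9.07 on the VE arrays and 8.27 to 8.70 on the ob/ob vehicle arrays. On wild type arrays 1, 2 and 3 they summed to 8.64, 8.58 and 10.9. The part of these cell types in the differences below was not tested, and results are given with and without wild type arrays 1 and 2 and VE array 3 where these bear on them.

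**Figure D1:**
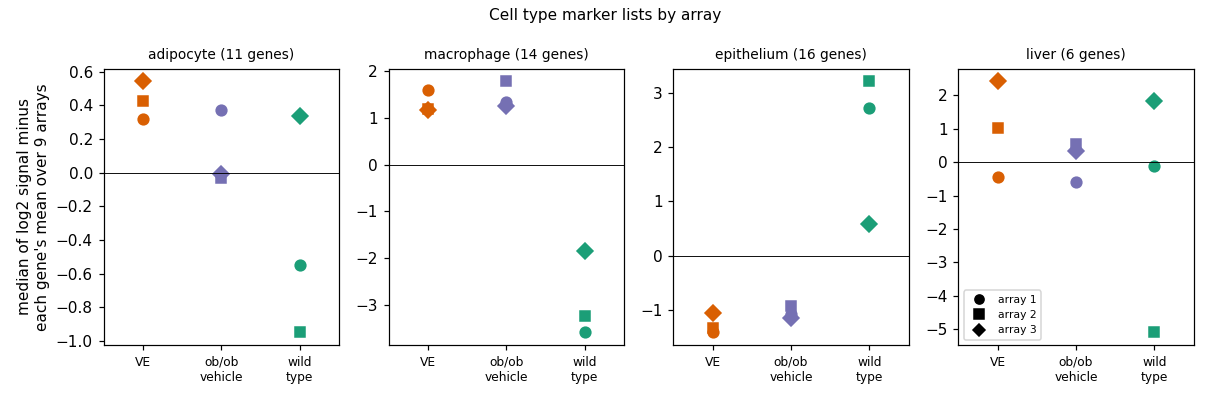
Median, over the genes of 4 marker lists, of the log2 signal minus each gene's mean over the 9 arrays (vertical axes), by group (horizontal axes). Each symbol is 1 array; the epithelium list is highest on wild type arrays 2 and 1, the macrophage list is high on all 6 ob/ob arrays, and the liver list runs from wild type array 2 at the bottom to VE array 3 at the top.

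The comparison of ob/ob vehicle with wild type mice describes these genes in obese, leptin-deficient fat. Of the 32 genes, 12 were higher in ob/ob vehicle mice, 0 were lower and 20 did not pass, while 9.02% of all clusters tested were called higher and 5.05% lower. The calls were uneven between the organelles: 10 of 17 mitochondrial genes were higher, against 1 of 11 peroxisomal genes, and Crat was the remaining call. The median difference was 1.21 over the mitochondrial genes, -0.02 over the peroxisomal genes and 0.37 over all 32, beside -0.04 over all clusters, and 21 of the 32 read higher, beside 47.4% of all clusters. The ob/ob vehicle arrays did not overlap the wild type arrays at 13 of the 32 genes that were higher and 3 that were lower, beside 15.7% and 13.1% of all clusters. Without wild type arrays 1 and 2, 1 wild type array is left and is assumed to vary like the other groups. The median over all 32 genes was then 0.27, and calls of that fit are not counted in this paragraph. The median over all 32 genes was 0.63 without ob/ob vehicle array 1, 0.22 without wild type array 2 and 0.68 without wild type array 3. Without wild type arrays 1 and 2, the median of the mitochondrial genes was 0.82.

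**Figure D2:**
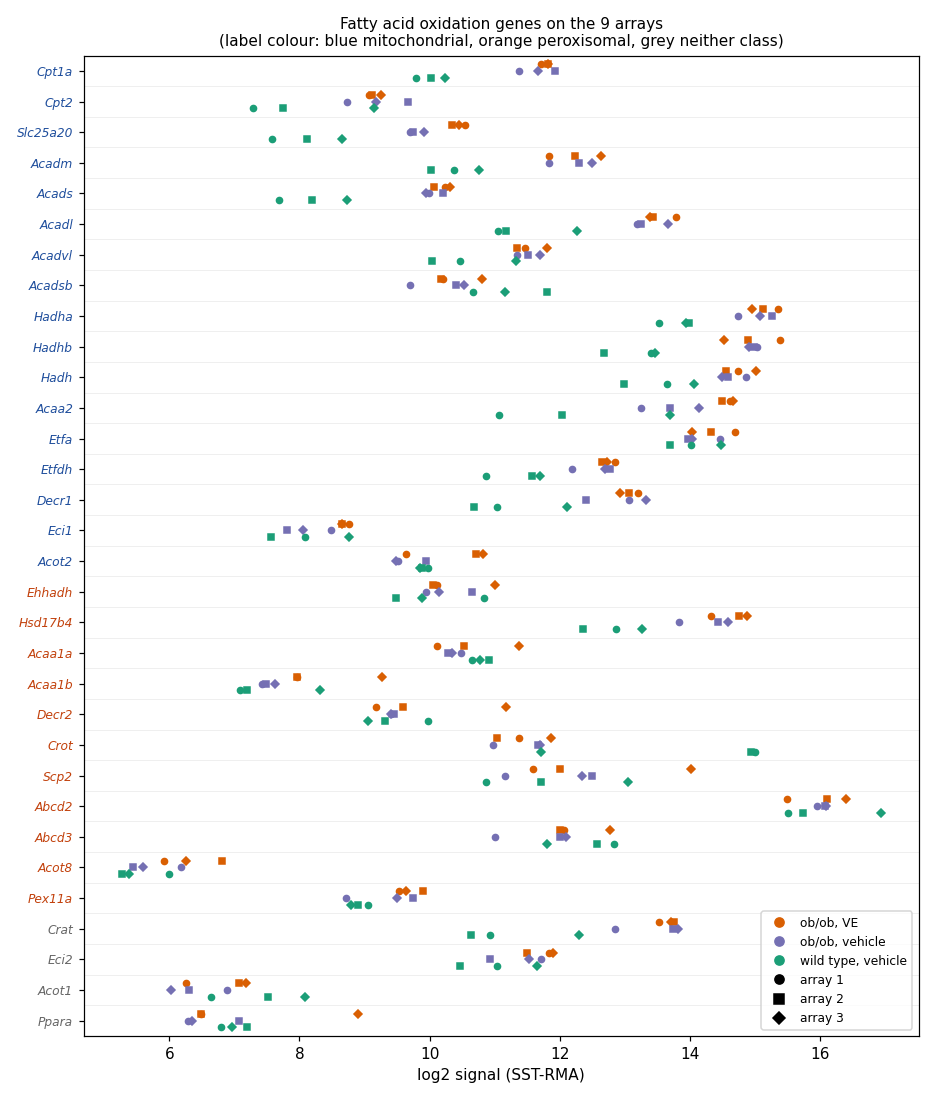
Log2 signal (horizontal axis) of the 32 genes (rows) on the 9 arrays, with colour for the group and symbol for the array number. At Cpt1a, Slc25a20, Acadm, Acads, Acadl, Hadha, Hadhb, Hadh, Etfdh, Decr1, Hsd17b4 and Crat, the 3 wild type points lie left of all ob/ob points; at Crot, wild type arrays 1 and 2 lie far to the right at 15.00 and 14.94. Levels of different genes come from different probes and are not comparable.

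In the carnitine shuttle, Cpt1a and Slc25a20 were called higher and Cpt2 was not. Crat, a carnitine enzyme outside that shuttle, was called higher as well. Cpt1a, the outer membrane enzyme that commits fatty acids to the mitochondrion, read 11.71, 11.82 and 11.82 in VE mice, 11.38, 11.93 and 11.66 in ob/ob vehicle mice, and 9.79, 10.02 and 10.23 in wild type mice. All 6 ob/ob arrays were above all wild type arrays. In ob/ob vehicle mice the gene was 3.12-fold higher, a difference of 1.64 ± 0.23 (SE; limma, adjusted p = 0.00119). Slc25a20, the translocase that exchanges acylcarnitine for carnitine across the inner membrane, read 10.55, 10.35 and 10.45 in VE mice, 9.70, 9.74 and 9.91 in ob/ob vehicle mice, and 7.58, 8.12 and 8.65 in wild type mice. Here the 3 groups formed 3 separate bands. Slc25a20 was 3.17-fold higher in ob/ob vehicle mice (1.67 ± 0.28; limma, adjusted p = 0.00329). Crat, which interconverts acetyl-CoA and acetylcarnitine, read 13.52, 13.75 and 13.71 in VE mice, 12.85, 13.74 and 13.82 in ob/ob vehicle mice, and 10.93, 10.63 and 12.29 in wild type mice. Its difference between ob/ob vehicle and wild type mice was 2.19 ± 0.42, or 4.55-fold (limma, adjusted p = 0.00738), and 1.18 without wild type arrays 1 and 2 (limma, adjusted p = 0.0983). Cpt2, the inner membrane enzyme that returns acyl groups to CoA, read 9.07, 9.11 and 9.26 in VE mice, 8.73, 9.67 and 9.18 in ob/ob vehicle mice, and 7.29, 7.75 and 9.14 in wild type mice. Only wild type array 3 reached the ob/ob range at Cpt2. The difference of 1.13 ± 0.44 did not pass (limma, adjusted p = 0.118), and it was 1.67 without wild type array 3 (limma, adjusted p = 0.00428) and 0.05 without wild type arrays 1 and 2 (limma, adjusted p = 0.958).

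The acyl-CoA dehydrogenases, which open each round of beta-oxidation and divide the work by chain length, were higher at 3 of the 4 straight-chain enzymes. Acadm, for medium chains, read 11.84, 12.24 and 12.63 in VE mice, 11.84, 12.30 and 12.49 in ob/ob vehicle mice, and 10.37, 10.02 and 10.76 in wild type mice. Acads, for short chains, read 10.23, 10.07 and 10.31 in VE mice, 9.99, 10.21 and 9.95 in ob/ob vehicle mice, and 7.69, 8.20 and 8.73 in wild type mice. Both had wild type arrays wholly below the ob/ob arrays, with differences between ob/ob vehicle and wild type mice of 1.83 ± 0.30 for Acadm and 1.84 ± 0.28 for Acads (limma, adjusted p = 0.00305 and 0.00179). Acadl, for long chains, read 13.78, 13.43 and 13.38 in VE mice, 13.18, 13.25 and 13.66 in ob/ob vehicle mice, and 11.05, 11.18 and 12.26 in wild type mice. Its 3.65-fold difference (1.87 ± 0.33; limma, adjusted p = 0.00457) was 1.10 without wild type arrays 1 and 2 (limma, adjusted p = 0.0623). Acadvl, for very long chains, read 11.47, 11.35 and 11.81 in VE mice, 11.35, 11.51 and 11.70 in ob/ob vehicle mice, and 10.46, 10.03 and 11.33 in wild type mice. Wild type array 3 lay just under the ob/ob arrays at Acadvl and well above the other wild type arrays. The difference of 0.91 ± 0.32 did not pass (limma, adjusted p = 0.0938), and it was 1.28 without wild type array 3 (limma, adjusted p = 0.00828) and 0.19 without wild type arrays 1 and 2 (limma, adjusted p = 0.785).

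Acadsb, the dehydrogenase for short branched chains that serves isoleucine breakdown, ran the other way. It read 10.20, 10.17 and 10.81 in VE mice, 9.70, 10.40 and 10.53 in ob/ob vehicle mice, and 10.67, 11.81 and 11.16 in wild type mice. All ob/ob vehicle arrays were below all wild type arrays. The difference, with a 95% interval of -1.78 to -0.22, did not pass (limma, adjusted p = 0.0886). It passed without wild type array 1, at -1.27 (limma, adjusted p = 0.0464), and after quantile normalization, at -1.29 (limma, adjusted p = 0.023). Acadsb stayed uncalled in 18 of 21 alternative settings, and over all 21 its difference ran from -1.29 to -0.705.

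The later steps of the mitochondrial spiral were higher at 3 of 4 genes. Hadha and Hadhb encode the alpha and beta subunits of the trifunctional protein, the inner membrane complex that carries out hydration, dehydrogenation and thiolysis of long chains. Hadha read 15.36, 15.12 and 14.96 in VE mice, 14.74, 15.26 and 15.08 in ob/ob vehicle mice, and 13.52, 13.99 and 13.94 in wild type mice. Hadhb read 15.38, 14.90 and 14.53 in VE mice, 15.03, 14.98 and 14.91 in ob/ob vehicle mice, and 13.41, 12.68 and 13.47 in wild type mice. Neither subunit had a wild type array within the ob/ob range. The differences were 1.21 ± 0.24 for Hadha, or 2.31-fold, and 1.79 ± 0.29 for Hadhb, or 3.45-fold (limma, adjusted p = 0.00872 and 0.00308). Without wild type arrays 1 and 2 the Hadha difference was 1.09 and did not pass (limma, adjusted p = 0.0646). Hadh, the hydroxyacyl-CoA dehydrogenase of the matrix, read 14.74, 14.56 and 15.01 in VE mice, 14.86, 14.58 and 14.49 in ob/ob vehicle mice, and 13.65, 12.99 and 14.07 in wild type mice. Its call (1.07 ± 0.29; limma, adjusted p = 0.0365) was the least stable of the 12 and ended in 11 of 21 alternative settings. It ended on leaving out any array other than wild type array 3, with limma adjusted p-values of 0.0518 to 0.111 and differences of 0.78 to 1.15, and without wild type arrays 1 and 2 together the difference was 0.57 (limma, adjusted p = 0.312).

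Acaa2, the matrix thiolase that ends each round, read 14.61, 14.50 and 14.67 in VE mice, 13.25, 13.69 and 14.14 in ob/ob vehicle mice, and 11.06, 12.04 and 13.69 in wild type mice. Wild type array 3 lay inside the ob/ob vehicle range, and the 3 wild type arrays spanned the widest range of any mitochondrial gene, with an SD of 1.33. The difference between ob/ob vehicle and wild type mice was 1.43 ± 0.55 and did not pass (limma, adjusted p = 0.115). It was 2.14 without wild type array 3 (limma, adjusted p = 0.00204) and 0.0033 without wild type arrays 1 and 2 (limma, adjusted p = 0.997).

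Electron transfer split between its genes. Etfdh, the oxidoreductase that passes electrons to ubiquinone, read 12.85, 12.65 and 12.72 in VE mice, 12.19, 12.77 and 12.69 in ob/ob vehicle mice, and 10.86, 11.57 and 11.69 in wild type mice. Every ob/ob array was above every wild type array at Etfdh (1.18 ± 0.28, or 2.26-fold; limma, adjusted p = 0.0187). The call ended without ob/ob vehicle array 2 (1.07, limma adjusted p = 0.0796) and without ob/ob vehicle array 3 (1.11, limma adjusted p = 0.0669). It also ended in the fit of only the ob/ob vehicle and wild type arrays (1.18, limma adjusted p = 0.0608). Without wild type arrays 1 and 2 the Etfdh difference was 0.86. Etfa, the alpha subunit of electron transfer flavoprotein, averaged 14.16 ± 0.26 in ob/ob vehicle and 14.07 ± 0.39 in wild type mice (SD, n = 3 each). The interval of its difference ran from -0.54 to 0.72 (95%, limma), so Etfa had no detectable shift beside Etfdh, and the difference between the genes was not tested.

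Among the auxiliary enzymes for unsaturated chains, Decr1, the mitochondrial dienoyl-CoA reductase, was higher in ob/ob vehicle mice. It read 13.21, 13.07 and 12.93 in VE mice, 13.06, 12.40 and 13.32 in ob/ob vehicle mice, and 11.04, 10.68 and 12.11 in wild type mice. The difference was 1.65 ± 0.38, or 3.14-fold (limma, adjusted p = 0.0161). It did not pass without ob/ob vehicle array 1 (1.58, limma adjusted p = 0.0556) or without ob/ob vehicle array 3 (1.45, limma adjusted p = 0.065). It also did not pass in the fit of only the ob/ob vehicle and wild type arrays (1.65, limma adjusted p = 0.0535). Without wild type arrays 1 and 2 the Decr1 difference was 0.82. The isomerase Eci1 averaged 8.12 ± 0.34 in ob/ob vehicle and 8.14 ± 0.60 in wild type mice, and Eci2, found in both organelles, averaged 11.39 ± 0.41 in ob/ob vehicle and 11.05 ± 0.59 in wild type mice (SD, n = 3 each). Neither isomerase passed, with differences of -0.02 ± 0.31 and 0.34 ± 0.33 (SE).

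The thioesterases, which free fatty acids from CoA, did not pass. Acot2, in the matrix, read 9.64, 10.72 and 10.82 in VE mice, 9.52, 9.95 and 9.49 in ob/ob vehicle mice, and 9.98, 9.89 and 9.85 in wild type mice, and the ob/ob vehicle and wild type arrays overlapped. Acot1, its cytosolic relative, read 6.26, 7.07 and 7.18 in VE mice, 6.88, 6.30 and 6.03 in ob/ob vehicle mice, and 6.64, 7.52 and 8.09 in wild type mice. Acot1 differed by -1.01 ± 0.41 between ob/ob vehicle and wild type mice (limma, adjusted p = 0.132). It passed without wild type array 1, at -1.40 (limma, adjusted p = 0.0414), and its difference was -1.69 without wild type arrays 1 and 2. Acot1 stayed uncalled in 18 of 21 alternative settings, and over all 21 its difference ran from -1.69 to -0.68. Acot1 and Acot2 are close paralogs, so their probes may share signal, which was not tested.

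**Figure D3:**
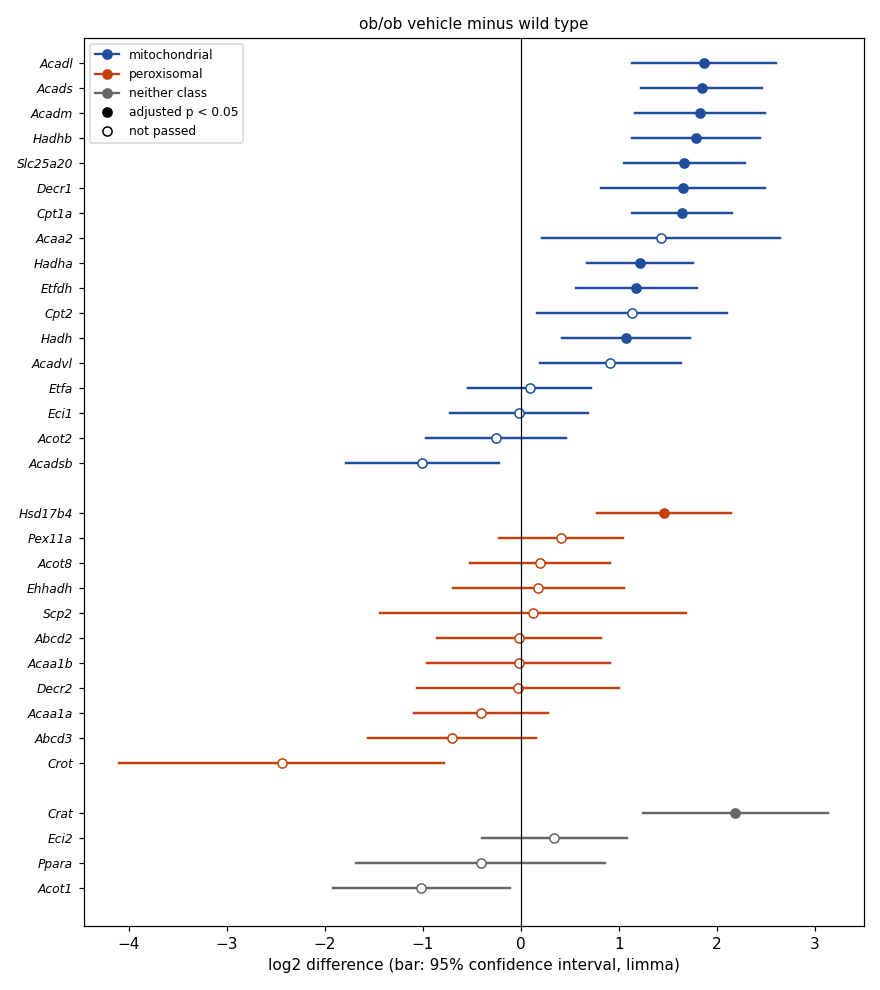
Log2 difference of ob/ob vehicle minus wild type mice (horizontal axis) for the 32 genes, grouped as mitochondrial, peroxisomal and neither class; bars are 95% confidence intervals of limma and filled points passed at an adjusted p under 0.05. The 10 filled mitochondrial points lie between 1.07 and 1.87, while Hsd17b4 at 1.46 is the only filled peroxisomal point and Crot at -2.44 is open.

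Upstream sequence was set out for 5 of the genes called higher in ob/ob vehicle mice with all arrays. They were picked by also passing in the fit without wild type arrays 1 and 2, which leaves 1 wild type array. That fit cannot show that a call does not rest on those 2 arrays, so the choice is a way to limit what is printed. RefSeq windows of 250 bases before an annotated start (GRCm38.p6) were matched for 28 of the 33 listed genes, with 29 windows in all. That start is not always the outer end of the gene: the RefSeq span of Cpt1a begins at chr19:3322326, ahead of its window. The windows shown lie at chr19:3323051-3323300 on the plus strand (Cpt1a), chr9:108661886-108662135 on the plus strand (Slc25a20), chr3:153944644-153944893 on the minus strand (Acadm), chr5:115119347-115119596 on the minus strand (Acads) and chr5:30155003-30155252 on the plus strand (Hadhb). They are printed 5′ to 3′ and capitals mark GGGCGG, the GC box bound by Sp1-type factors, or CCAAT, the box bound by NF-Y, on either strand.
Cpt1a: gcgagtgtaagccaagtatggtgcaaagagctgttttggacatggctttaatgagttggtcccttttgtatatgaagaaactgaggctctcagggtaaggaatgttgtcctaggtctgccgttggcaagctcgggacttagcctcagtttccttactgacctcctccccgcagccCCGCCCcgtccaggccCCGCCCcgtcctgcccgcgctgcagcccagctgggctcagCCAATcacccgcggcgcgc
Slc25a20: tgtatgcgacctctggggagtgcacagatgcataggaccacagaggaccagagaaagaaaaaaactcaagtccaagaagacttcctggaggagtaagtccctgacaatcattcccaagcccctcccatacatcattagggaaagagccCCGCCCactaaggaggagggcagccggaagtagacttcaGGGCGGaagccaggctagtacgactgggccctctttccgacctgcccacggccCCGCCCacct
Acadm: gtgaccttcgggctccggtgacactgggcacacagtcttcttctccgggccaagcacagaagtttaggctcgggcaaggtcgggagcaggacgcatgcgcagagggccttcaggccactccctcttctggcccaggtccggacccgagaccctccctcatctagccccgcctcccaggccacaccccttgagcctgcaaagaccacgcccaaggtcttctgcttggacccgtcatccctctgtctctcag
Acads: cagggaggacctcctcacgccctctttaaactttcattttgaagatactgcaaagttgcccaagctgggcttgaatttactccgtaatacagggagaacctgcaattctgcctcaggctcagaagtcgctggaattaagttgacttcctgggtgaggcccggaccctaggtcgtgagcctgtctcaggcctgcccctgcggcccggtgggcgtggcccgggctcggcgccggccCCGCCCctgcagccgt
Hadhb: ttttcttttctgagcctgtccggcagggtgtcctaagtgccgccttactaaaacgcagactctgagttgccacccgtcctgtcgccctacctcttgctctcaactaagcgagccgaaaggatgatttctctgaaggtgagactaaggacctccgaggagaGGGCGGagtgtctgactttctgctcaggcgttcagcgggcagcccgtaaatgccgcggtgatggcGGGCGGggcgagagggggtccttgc

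The GC box was present in 19 of 29 windows of the listed genes (65.5%), against 32.7% of 32851 windows of all genes and 44.2% of the windows of genes on the array. It stood in 10 of 16 mitochondrial and 6 of 10 peroxisomal windows, so its presence did not separate the organelles, and Acadm had none. CCAAT was found in 13 of 29 windows (44.8%), against 33.8% of all windows and 35% of those of genes on the array. The letters TATAAA were in 0 of 29 windows, against 12.4% of all windows and 11.4% of those of genes on the array. The median GC content of the windows was 58.8% for the listed genes, 56% for genes on the array and 52.4% for all genes. AGGTCANAGGTCA, the repeat of AGGTCA with 1 base between that PPAR and RXR pairs bind, was in 0 of 29 windows (0.0335% of all windows). The looser AGGNCANAGGNCA, which includes it, was also in 0 (0.338% of all), as was TNAAGGTCA, the extended site of the ERR receptors (1.14% of all). Both strands were searched, and these letters being absent says nothing of sites outside the windows. Hadha and Hadhb lie head to head on chromosome 5 with 272 bases between their starts (chr5:30154981-30155252), so that their upstream windows share 228 bases. The Hadhb window printed above is therefore largely the Hadha window read from the other strand.

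The peroxisomal genes showed no common shift between ob/ob vehicle and wild type mice. Hsd17b4, the D-bifunctional protein that hydrates and dehydrogenates very long and branched chains, was the exception. It read 14.32, 14.75 and 14.87 in VE mice, 13.84, 14.43 and 14.58 in ob/ob vehicle mice, and 12.86, 12.36 and 13.26 in wild type mice. The 2.74-fold difference was 1.46 ± 0.31 (limma, adjusted p = 0.0109). It was 1.02 without wild type arrays 1 and 2 (limma, adjusted p = 0.124) and 1.11 after quantile normalization (limma, adjusted p = 0.0506). Ehhadh, the L-bifunctional enzyme of the same step and a classical PPAR-alpha target in rodent liver, averaged 10.25 ± 0.36 in ob/ob vehicle and 10.07 ± 0.69 in wild type mice (SD, n = 3 each). Its difference was 0.18 ± 0.39 (SE; limma, adjusted p = 0.819).

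The thiolases Acaa1a and Acaa1b, which cleave straight-chain substrates in peroxisomes, are near copies of each other on chromosome 9, and probes may not fully separate them. Acaa1a averaged 10.37 ± 0.10 in ob/ob vehicle and 10.78 ± 0.13 in wild type mice (SD, n = 3 each), with all ob/ob vehicle arrays below all wild type arrays. Its difference of -0.41 ± 0.31 did not pass (limma, adjusted p = 0.435). Acaa1b read 7.96, 7.97 and 9.27 in VE mice, 7.42, 7.49 and 7.62 in ob/ob vehicle mice, and 7.09, 7.19 and 8.32 in wild type mice, where ob/ob vehicle and wild type overlapped. The upstream windows of the pair are shown because near copies can still differ ahead of a start. Acaa1a at chr9:119341044-119341293 on the plus strand has 3 GC boxes and 3 CCAAT boxes. Its window lies within the RefSeq span of the gene, which begins at chr9:119341028. Acaa1b at chr9:119157094-119157343 on the minus strand has 0 GC boxes and 2 CCAAT boxes (GRCm38.p6, capitals as above).
Acaa1a: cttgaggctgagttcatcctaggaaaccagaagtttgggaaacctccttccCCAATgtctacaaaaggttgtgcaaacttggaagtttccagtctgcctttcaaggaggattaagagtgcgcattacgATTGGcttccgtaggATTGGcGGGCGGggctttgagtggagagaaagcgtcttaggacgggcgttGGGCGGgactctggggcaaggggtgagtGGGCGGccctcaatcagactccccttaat
Acaa1b: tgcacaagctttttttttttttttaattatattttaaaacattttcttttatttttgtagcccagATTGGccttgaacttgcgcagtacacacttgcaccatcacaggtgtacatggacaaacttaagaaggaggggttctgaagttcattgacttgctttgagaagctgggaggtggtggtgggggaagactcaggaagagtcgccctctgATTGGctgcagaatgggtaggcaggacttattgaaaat

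Crot, the octanoyltransferase that prepares shortened chains for export from peroxisomes, had the widest spread of the 32 genes. It read 11.38, 11.04 and 11.86 in VE mice, 10.97, 11.67 and 11.69 in ob/ob vehicle mice, and 15.00, 14.94 and 11.71 in wild type mice. Wild type arrays 1 and 2, the arrays with the most epithelial signal, were far above the others, and wild type array 3 lay at the level of the ob/ob arrays. The difference between ob/ob vehicle and wild type mice was -2.44 ± 0.74 and did not pass (limma, adjusted p = 0.0554). It was -0.27 without wild type arrays 1 and 2. It was -3.53 without wild type array 3 (limma, adjusted p = 5.04e-05), and it also passed with array weights, after quantile normalization and with the dimmest 30% of clusters left out, at limma adjusted p-values of 0.0238, 0.0393 and 0.044.

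The other peroxisomal genes did not pass. Decr2, the dienoyl-CoA reductase of peroxisomes, averaged 9.42 ± 0.03 in ob/ob vehicle and 9.45 ± 0.47 in wild type mice (SD, n = 3 each). Scp2, whose gene encodes a thiolase for branched chains and a sterol carrier, averaged 12.00 ± 0.73 in ob/ob vehicle and 11.87 ± 1.10 in wild type mice. The importers Abcd2 and Abcd3 differed by -0.02 ± 0.38 and -0.70 ± 0.38 (SE), the thioesterase Acot8 by 0.19 ± 0.32 and Pex11a, which drives peroxisome division, by 0.41 ± 0.28. Limma's adjusted p-values for these 6 genes lay between 0.268 and 0.981. Ppara itself averaged 6.57 ± 0.43 in ob/ob vehicle and 6.98 ± 0.20 in wild type mice (SD, n = 3 each), and its difference of -0.41 ± 0.57 did not pass (SE; limma, adjusted p = 0.697).

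Per array, the median of the 17 mitochondrial genes after subtracting each gene's mean over the 9 arrays was 0.23, 0.29 and 0.46 on ob/ob vehicle arrays, against -1.24, -1.19 and -0.31 on wild type arrays 1, 2 and 3. The 11 peroxisomal genes had medians of -0.29, -0.12 and -0.09 on ob/ob vehicle arrays, against 0.04, -0.41 and -0.35 on wild type arrays 1, 2 and 3. The mitochondrial medians of the 2 groups were therefore apart on all arrays and the peroxisomal medians overlapped. The median mitochondrial difference exceeded the median peroxisomal difference by 1.23, and by 0.92 without wild type arrays 1 and 2. Members are not replicates, so this gap has no test. The sign of the peroxisomal median depended on the scaling, at -0.02 as deposited, 0.07 after median centring and -0.17 after quantile normalization, while the mitochondrial median was 1.21, 1.30 and 0.97.

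Wild type array 3, which had less epithelial and more adipocyte signal than the other wild type arrays, gave a narrower gap. All 3 ob/ob vehicle arrays were above wild type array 3 at 11 of 17 mitochondrial and 4 of 11 peroxisomal genes. The mean of the ob/ob vehicle arrays minus wild type array 3 had a median of 0.82 over the mitochondrial genes and -0.10 over the peroxisomal genes. Wild type arrays 1 and 2 were both below wild type array 3 at 14 of 17 mitochondrial genes, with a median difference of their mean from array 3 of -0.75. Wild type arrays 1 and 2 were the lowest of the 9 arrays at 8 and 7 mitochondrial genes. These arrays also had the lowest adipocyte and the highest epithelium marker sums of the 9. The shares of all clusters with the patterns counted in this paragraph were not computed, so these counts have no background beside them.

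**Figure D4:**
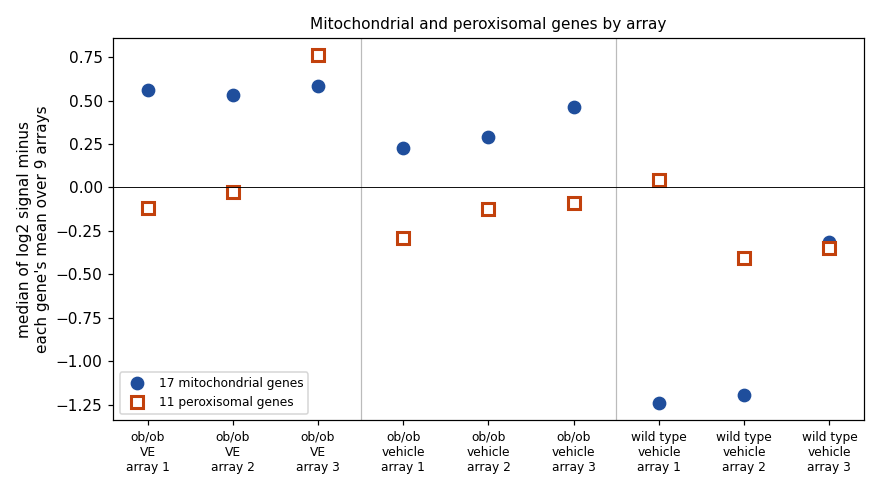
Median, over the 17 mitochondrial genes (filled circles) and the 11 peroxisomal genes (open squares), of the log2 signal minus each gene's mean over the 9 arrays, for each array (horizontal axis). Mitochondrial medians lie at 0.23 to 0.58 on the 6 ob/ob arrays and at -1.24 to -0.31 on the wild type arrays; the peroxisomal median stands out on VE array 3, at 0.76.

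The comparison of VE with ob/ob vehicle mice asks whether the extract changed these genes in obese animals. No member was called (0 of 32), beside 0.0255% of all clusters, which is 5 of 19572 (limma). At an unadjusted limma p under 0.05, 2 of 32 genes were past the threshold, Slc25a20 and Acot2, beside 4.56% of all clusters. The fit of only these 2 groups, the fit with a trended or robust prior and the fit with array weights also called 0 members. Differences were small and mostly above 0: 28 of 32 genes read higher in VE mice, beside 46.5% of all clusters, with a median of 0.19 against -0.02 over all clusters. Without ob/ob vehicle array 3 the median was 0.33. The count above 0 was 24 after quantile normalization, 21 without VE array 3 and 21 without ob/ob vehicle array 1. VE arrays did not overlap ob/ob vehicle arrays at 4 genes that read higher and 0 that read lower, beside 5.77% and 6.79% of all clusters. Under the submitters' threshold, a fold over 1.1 at an unadjusted p under 0.05, the same 2 genes were higher and 0 were lower, beside 2.91% and 1.66% of all clusters.

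The 4 genes with the smallest p were Slc25a20, Acot2, Acaa1b and Acot8. Slc25a20 had every VE array above every ob/ob vehicle array, with a difference of 0.67 ± 0.28, or 1.59-fold (SE; limma, unadjusted p = 0.0366, adjusted p = 1). Acot2 differed by 0.74 ± 0.32, or 1.67-fold (limma, unadjusted p = 0.0427), but VE array 1 lay within the ob/ob vehicle range. Acaa1b differed by 0.89 ± 0.42 (limma, unadjusted p = 0.0588), with no overlap between the groups and VE array 3 at 9.27 well above VE arrays 1 and 2. Acot8, a peroxisomal thioesterase of broad chain-length range, read 5.92, 6.81 and 6.25 in VE mice, 6.18, 5.44 and 5.59 in ob/ob vehicle mice, and 5.99, 5.27 and 5.38 in wild type mice. Its VE and ob/ob vehicle arrays overlapped, and its difference was 0.59 ± 0.32 (limma, unadjusted p = 0.0954). The other non-overlapping genes were Eci1, at 0.57 ± 0.31, and Acaa2, at 0.90 ± 0.55, and neither passed.

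Of the 12 genes called higher in ob/ob vehicle mice over wild type mice, Slc25a20 had the largest difference between VE and ob/ob vehicle mice, at 0.67 (95% interval of limma 0.05 to 1.28), and was the 1 gene of the 12 whose arrays did not overlap. Hsd17b4 followed at 0.36 (-0.32 to 1.05), and both Crat and Etfdh were at 0.19 (-0.76 to 1.14 and -0.43 to 0.81). The difference between VE and ob/ob vehicle mice was 0.13 for Cpt1a (95% interval of limma -0.38 to 0.64), 0.03 for Acadm (-0.64 to 0.69), 0.15 for Acads (-0.46 to 0.77), 0.17 for Acadl (-0.57 to 0.90), 0.12 for Hadha (-0.42 to 0.66), -0.04 for Hadhb (-0.69 to 0.62), 0.13 for Hadh (-0.53 to 0.78) and 0.14 for Decr1 (-0.69 to 0.98). Shifts within these intervals were not detectable with 3 arrays a group, so equal levels are not shown.

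VE array 3 set most of the peroxisomal values. It was the highest of the 9 arrays at 6 of 11 peroxisomal genes, namely Ehhadh, Hsd17b4, Acaa1a, Acaa1b, Decr2 and Scp2. Among the VE arrays it was the highest at 9 of 11. The shares over all clusters were not computed for these counts. Decr2 read 9.17, 9.59 and 11.18 on VE arrays 1, 2 and 3, against 9.40, 9.45 and 9.40 on the ob/ob vehicle arrays. Ppara read 6.49, 6.48 and 8.90 on VE arrays 1, 2 and 3, against 6.29, 7.07 and 6.35 on the ob/ob vehicle arrays. At both genes VE array 3 was the highest of the 9 arrays. The centred median of the peroxisomal genes was -0.12, -0.02 and 0.76 on VE arrays 1, 2 and 3, while the mitochondrial genes had 0.56, 0.53 and 0.58. Liver markers were also highest on VE array 3, with a centred median of 2.43, against -0.44 and 1.03 on VE arrays 1 and 2. Wild type array 3 had the next highest liver median, 1.84, with a peroxisomal median of -0.35. The part of liver transcripts in the peroxisomal values was not tested. With VE array 3, the median difference between VE and ob/ob vehicle mice was 0.15 over mitochondrial and 0.36 over peroxisomal genes, a gap of -0.21. Without it the medians were 0.20 and -0.04, and the gap turned to 0.24. Leaving out any other array gave gaps of -0.44 to -0.07.

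**Figure D5:**
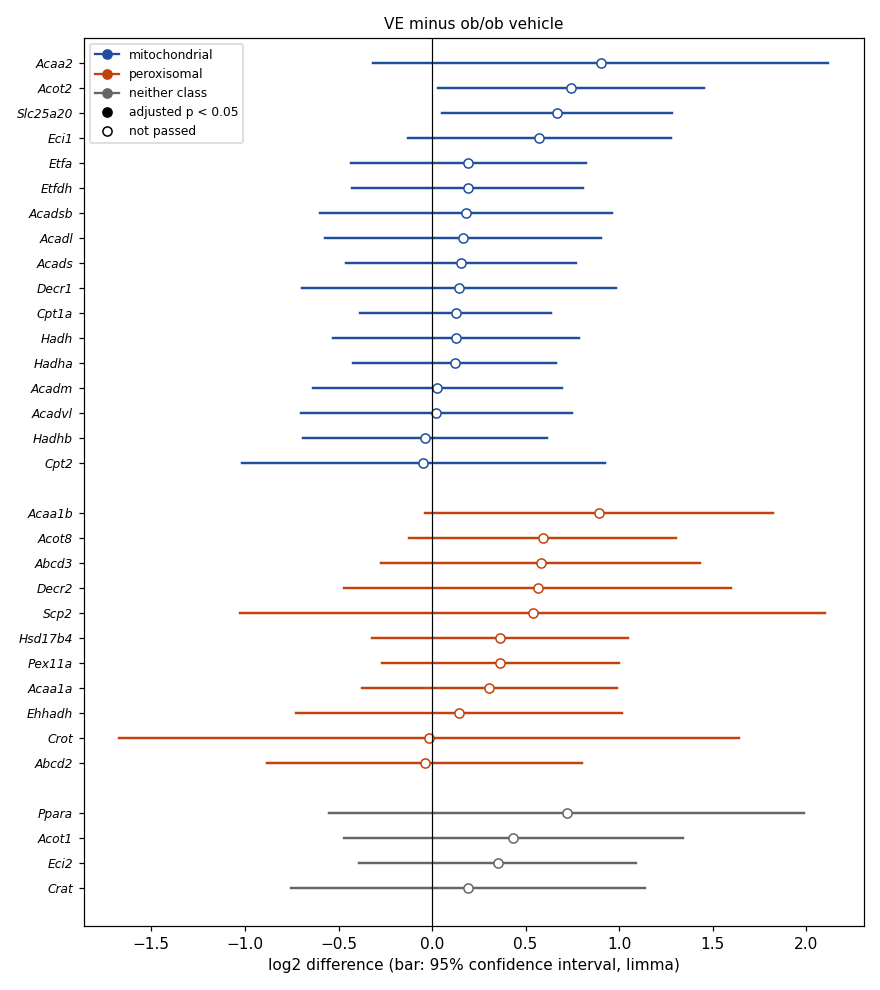
Log2 difference of VE minus ob/ob vehicle mice (horizontal axis) for the 32 genes, grouped and drawn as in the plot of ob/ob vehicle against wild type mice, with 95% confidence intervals of limma. No point is filled; the values run from -0.05 at Cpt2 to 0.90 at Acaa2, and the intervals of Slc25a20 and Acot2 alone lie wholly above 0.

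The comparison of VE with wild type mice shares its wild type arrays with that of ob/ob vehicle mice. Of the 32 genes, 13 were higher in VE mice, Crot was the 1 gene that was lower, and 18 did not pass, beside 12.4% of all clusters called higher and 7.58% lower. Of the mitochondrial genes, 11 of 17 were higher, with a median of 1.37; of the peroxisomal genes, 1 was higher and 1 was lower, with a median of 0.53. The median over all 32 was 0.82, with 26 reading higher (45.4% of all clusters), and 1.25 without wild type array 3. Over all clusters it was -0.07, which median centring moved to 0.04. Slc25a20 differed by 2.33 ± 0.28, or 5.04-fold (limma, adjusted p = 0.000396), and Cpt1a by 1.77 ± 0.23, or 3.41-fold (limma, adjusted p = 0.000664). Crat was 5.19-fold and Hsd17b4 3.53-fold higher in VE mice (limma, adjusted p = 0.00403 and 0.00294). The Crat difference of 2.38 was 1.37 without wild type arrays 1 and 2 and did not pass (limma, adjusted p = 0.0504). Acaa2 was higher by 2.33 ± 0.55 (limma, adjusted p = 0.0147), though not without wild type arrays 1 and 2 (0.90; limma, adjusted p = 0.138) or without VE array 1 (2.32; limma, adjusted p = 0.0501). Crot fell by 2.46 on the log2 scale, or was 5.49-fold lower in VE mice (limma, adjusted p = 0.0425). The Crot call ended in 13 of 21 alternative settings, among them leaving out any array other than wild type array 3, with differences of -2.67 to -1.90 and limma adjusted p-values of 0.0578 to 0.132. It was -0.28 without wild type arrays 1 and 2.

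Calls in this comparison also turned on other arrays. Hadh, higher by 1.20 ± 0.29 (limma, adjusted p = 0.0181), did not pass without VE array 1 (1.22; limma, adjusted p = 0.0564) or VE array 3 (1.08; limma, adjusted p = 0.0698). It was 0.70 without wild type arrays 1 and 2 (limma, adjusted p = 0.184) and 0.63 after quantile normalization (limma, adjusted p = 0.196), and did not pass in either case. Without wild type array 3, Cpt2 (1.63), Acadvl (1.30), Eci2 (0.99) and Acaa1b (1.26) also passed, at limma adjusted p-values of 0.00438, 0.00643, 0.0442 and 0.038. Without wild type arrays 1 and 2 the same differences were 0.0067, 0.21, 0.09 and 0.08, at limma adjusted p-values of 0.993, 0.733, 0.916 and 0.944. Pex11a, at 0.77 ± 0.28 (limma, adjusted p = 0.0845), passed without ob/ob vehicle array 1, which enters only through the pooled spread (limma, adjusted p = 0.0388). Without wild type arrays 1 and 2, Etfdh differed by 1.05 (1.37 with all arrays) and Decr1 by 0.96 (1.79 with all arrays). The median was then 0.96 over the mitochondrial and 0.48 over the peroxisomal genes. The mitochondrial median exceeded the peroxisomal one by 0.83 with all arrays, by 0.48 without wild type arrays 1 and 2, and by 1.49 without VE array 3. Without VE array 1 the gap was 0.46.

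Other genes around the pathway were read from 4 further lists. Of 34 measured genes of fatty acid oxidation outside the members, ob/ob vehicle mice had 4 higher and 1 lower than wild type mice, and the other 29 did not pass, beside 9.02% of all clusters higher and 5.05% lower, with a median of -0.14. Acsl5, an acyl-CoA synthetase, read 11.01, 11.24 and 11.14 on ob/ob vehicle arrays, against 10.07, 9.74 and 9.87 on wild type arrays (1.24 ± 0.22; limma, adjusted p = 0.00414). Slc25a17, a cofactor carrier of the peroxisomal membrane, differed by 1.12 ± 0.25 (limma, adjusted p = 0.0137). The isomerase Eci3 read 6.83, 6.22 and 6.52 on ob/ob vehicle arrays, against 11.77, 10.38 and 7.98 on wild type arrays 1, 2 and 3, and differed by -3.52 ± 0.74 (limma, adjusted p = 0.0106). Like Crot, it was highest on wild type arrays 1 and 2, which had the most epithelial signal. Acad10 was near 0, at -0.05 ± 0.32. Between VE and wild type mice 8 were higher and 1 was lower, beside 12.4% and 7.58% of all clusters.

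Between VE and ob/ob vehicle mice 0 of these 34 genes passed (limma), while 30 read higher and 8 had an unadjusted limma p under 0.05, beside the 46.5% and 4.56% of all clusters given above. VE arrays lay wholly above ob/ob vehicle arrays at 10 of the 34 and wholly below at 1, beside 5.77% and 6.79% of all clusters. Ech1, an isomerase that shifts double bonds in mitochondria and peroxisomes, read 13.86, 13.93 and 13.98 in VE mice, 13.46, 12.51 and 12.67 in ob/ob vehicle mice, and 12.93, 12.78 and 13.44 in wild type mice. The VE arrays were above all other arrays at Ech1, by 1.04 ± 0.29 over ob/ob vehicle mice (SE; limma, adjusted p = 0.664). Mcee, an epimerase of the propionate pathway that takes up odd-chain remnants, differed by 1.40 ± 0.38, and Hsd17b10, a matrix dehydrogenase of branched chains, by 1.62 ± 0.46 (limma, adjusted p = 0.625 and 0.674). None of these differences passed.

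Of 17 measured genes of peroxisome biogenesis and catalase, 2 were higher in ob/ob vehicle mice, 0 were lower and 15 did not pass, with a median of 0.24. That share is near the 9.02% of all clusters called higher, beside 5.05% called lower. Pxmp4, a small peroxisomal membrane protein, read 10.55, 10.70 and 10.28 on ob/ob vehicle arrays, against 6.38, 7.50 and 8.45 on wild type arrays (3.07 ± 0.43; limma, adjusted p = 0.00124). Pex16, which helps to place membrane proteins in peroxisomes, differed by 1.48 ± 0.37 (limma, adjusted p = 0.0261). Catalase, which breaks down the peroxide that peroxisomal oxidation makes, differed by 1.40 ± 0.43 and did not pass (limma, adjusted p = 0.0574). The biogenesis genes Pex2 and Pex3 differed by -0.10 ± 0.24 and -0.07 ± 0.24. Between VE and ob/ob vehicle mice 0 of 17 passed (limma; 1 at an unadjusted p under 0.05), and between VE and wild type mice 5 were higher and 1 was lower, beside 12.4% and 7.58% of all clusters.

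Of 13 measured regulators and genes induced with fat oxidation, 2 were higher and 1 was lower in ob/ob vehicle mice, and 10 did not pass, beside 9.02% and 5.05% of all clusters. Angptl4, a fasting-induced inhibitor of lipoprotein lipase, read 16.84, 15.95 and 16.35 on ob/ob vehicle arrays, against 13.59, 13.23 and 13.34 on wild type arrays (2.99 ± 0.39; limma, adjusted p = 0.00082). Pdk4, a kinase that turns down pyruvate dehydrogenase, differed by 2.23 ± 0.52 (limma, adjusted p = 0.0175). Nrip1, a corepressor that restrains oxidative genes in fat, read 11.65, 11.86 and 12.20 on ob/ob vehicle arrays, against 13.88, 13.70 and 14.36 on wild type arrays (-2.08 ± 0.27; limma, adjusted p = 0.000773). The groups did not overlap at Angptl4 or Nrip1, including wild type array 3. Plin5 and Acacb differed by 0.20 ± 0.25 and 0.10 ± 0.25. Between VE and ob/ob vehicle mice 0 of 13 passed (limma; 0 at an unadjusted p under 0.05), and between VE and wild type mice 3 were higher and 1 was lower, beside 12.4% and 7.58% of all clusters.

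The citrate cycle burns the acetyl-CoA that beta-oxidation makes. Of 16 measured genes, 1 was higher and 1 was lower in ob/ob vehicle mice, near the 9.02% and 5.05% of all clusters, and 14 did not pass, with a median of 0.29. Idh3a, a subunit of NAD-dependent isocitrate dehydrogenase, read 14.13, 13.52 and 14.14 on ob/ob vehicle arrays, against 11.39, 11.79 and 12.57 on wild type arrays (2.01 ± 0.32; limma, adjusted p = 0.00237). Its partner subunits Idh3b and Idh3g differed by -0.09 ± 0.33 and 0.05 ± 0.37. Suclg2, a subunit of the GDP-forming succinyl-CoA ligase, was lower (-1.01 ± 0.27; limma, adjusted p = 0.0326). Between VE and ob/ob vehicle mice 0 of 16 passed (limma; 0 at an unadjusted p under 0.05), and between VE and wild type mice 3 were higher and 1 was lower, beside 12.4% and 7.58% of all clusters. The spread of the members among wild type mice was wider than in the other groups, with a median SD of 0.31 over the 32 genes in VE mice, 0.34 in ob/ob vehicle mice and 0.54 in wild type mice.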

How the data were processed

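The deposited values are log2 signals per transcript cluster, normalised by the authors with SST-RMA in Transcriptome Analysis Console (4.0.2 in the series' design text, 4 in the list of tools per the submitters' processing notes). RNA (100 ng) was labelled and hybridized for 16 hours, per the labels and the design text. Scanner files and detection calls were not used here. The genome build of the table is not given in the sources used here.

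The table holds 22206 clusters. Only the 19572 with exactly 1 gene symbol were tested, and the other 2634 (11.9%) had no symbol or more than 1. Of the named genes, 55 had several clusters, none of them a member. Without further normalization, limma 3.58.1 (R 4.3.3) was fitted to the values as 3 group means over 9 arrays with empirical Bayes (prior degrees of freedom 4.02), two-sided, and adjusted within each comparison. The script was tested on simulated data. Members and lists were chosen with earlier results of these data known. Array values are printed for members called in any comparison and for the 4 smallest p where fewer than 4 were called, and those of other members were added after their values were seen. Replicate numbers did not pair arrays: deviations of same-numbered arrays correlated at -0.06 to 0.18. Upstream sequences are from RefSeq (GRCm38.p6), and all 32 symbols matched its gene table. Alternatives covered the samples in the fit, the prior, weights, normalization, filters, the threshold and each array left out.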

Additional observations from a re-analysis of the deposited data

How the results depend on the processing

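Over 21 alternative settings, 1861 of 2016 gene values kept their direction and their side of the threshold, 46 lost a call, 33 gained one, 76 uncalled values changed sign and 0 called values reversed. Without wild type arrays 1 and 2, 6 members were called between ob/ob vehicle and wild type mice (12 with all arrays) and 8 between VE and wild type mice (14 with all arrays). That fit leaves 1 wild type array, so these counts show a change of setting and are not read as results. The calls between ob/ob vehicle and wild type mice were of mixed direction, as Acot1 was lower there, at -1.69. Fewer of all clusters were also called in that fit than with all arrays, in both comparisons. The submitters' threshold was a fold over 1.1 at an unadjusted p under 0.05. By it, 2 members were higher in VE than in ob/ob vehicle mice, beside 2.91% of all clusters. Between ob/ob vehicle and wild type mice 15 were higher and 3 lower, beside 15.7% and 12.7% of all clusters. Between VE and wild type mice 17 were higher and 2 lower, beside 18.3% and 15.6% of all clusters. Quantile normalization moved the median between VE and wild type mice to 0.60, against 0.82 as deposited.

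With each array left out in turn, 9 to 16 members were called between ob/ob vehicle and wild type mice, with a median of 0.22 (without wild type array 2) to 0.68 (without wild type array 3), or 0.63 without ob/ob vehicle array 1. Between VE and ob/ob vehicle mice 0 members were called in each case, beside 0 to 21 of all clusters, with a median of 0.13 to 0.33. Between VE and wild type mice 11 to 18 members were called, with a median of 0.67 to 1.25 (without wild type array 3). Over all clusters, 2314 (without VE array 1) to 4706 (without wild type array 3) were called there. The gap between mitochondrial and peroxisomal medians was 1.15 to 1.57 between ob/ob vehicle and wild type mice and 0.46 to 1.49 between VE and wild type mice. Between VE and ob/ob vehicle mice it was -0.44 to 0.24, and it reversed to 0.24 without VE array 3.

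With the replicate number as a block, 12 members were called between ob/ob vehicle and wild type mice, 0 between VE and ob/ob vehicle mice and 14 between VE and wild type mice, where Acadvl passed (0.94; limma, adjusted p = 0.0451) and Crot did not (-2.46; limma, adjusted p = 0.0602). Of 9 same-numbered pairs, 1 correlated over 0.1, so the numbers are not taken as pairs. The cause of these changes was not tested. Groups of 3 arrays limit what can be detected, and signal over background is unknown.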
